A study of Mus musculus with 12 samples.

Results

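The genes described here are 38 mouse genes of mitochondrial and peroxisomal fatty acid oxidation, taken by symbol from a list of regulators, carnitine shuttle proteins, mitochondrial β-oxidation enzymes and peroxisomal enzymes. All 38 were found among the 32047 genes of the deposited count table, and all 38 passed the filter on low counts in each of the 3 comparisons. RNA-seq was run on 12 kidney libraries in 3 groups of 4. AKI_A_FGF23_R176QR179Q, called the FGF23 variant group below, comes from mice in which FGF23 R176Q/R179Q was overexpressed and acute kidney injury (AKI) by rhabdomyolysis, the breakdown of muscle, followed 3 weeks later. AKI_A_mcherry, called the mcherry group, is named for the same injury and for mCherry, a red fluorescent protein, in place of FGF23. NC is named by these letters alone, and neither an injury nor an agent is given for it. The FGF23 variant and mcherry groups are together called the injured groups. FGF23 is a hormone of bone that acts on the kidney to lower phosphate reabsorption, and the R176Q and R179Q substitutions lie in the site at which the hormone is cleaved. The labels give no strain, sex or age, do not say how either protein was overexpressed or how long after injury the kidneys were taken, and do not say that each library is a separate mouse, so the p-values cover the spread between libraries, which may be technical. Uninjured mice with either protein were not analysed here, so the mcherry group and NC may differ by more than the injury.

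Fatty acids are the main fuel of the proximal tubule. Once activated to acyl-CoA esters, long chains enter the mitochondrion as carnitine esters and are shortened in a repeated cycle of dehydrogenation, hydration, a further dehydrogenation and thiolysis. Peroxisomes shorten very long and dicarboxylic chains and, by α-oxidation, remove the first carbon of branched or hydroxylated chains. The nuclear receptor encoded by Ppara and the coactivator encoded by Ppargc1a switch on many of these genes.

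The upstream sequences of some members are printed first, because the receptors that act on these genes bind DNA at copies of AGGTCA. RefSeq promoter windows on GRCm38.p6 were matched for 34 of the 38 members, leaving Decr1, Acaa2, Hsd17b4 and Crat. The deposited data use GRCm39 per the submitters' processing notes, so these coordinates belong to the sequences alone. Each line holds the 250 bases before a gene's start, 5′ to 3′ on the gene's strand. Capitals mark AGGTCA, which on the opposite strand reads TGACCT. Acadm, Cpt1a and Slc27a2 are shown because they hold a match. Hao2 and Acsm3 are shown as the members with the largest rise and the largest fall in the FGF23 variant group against the mcherry group, and Hadhb because its window lies between its own start and that of Hadha.
Acadm: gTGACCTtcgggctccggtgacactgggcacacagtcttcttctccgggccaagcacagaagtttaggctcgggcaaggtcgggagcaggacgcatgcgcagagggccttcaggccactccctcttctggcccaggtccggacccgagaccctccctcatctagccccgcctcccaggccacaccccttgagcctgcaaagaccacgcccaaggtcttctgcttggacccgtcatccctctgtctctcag
Cpt1a: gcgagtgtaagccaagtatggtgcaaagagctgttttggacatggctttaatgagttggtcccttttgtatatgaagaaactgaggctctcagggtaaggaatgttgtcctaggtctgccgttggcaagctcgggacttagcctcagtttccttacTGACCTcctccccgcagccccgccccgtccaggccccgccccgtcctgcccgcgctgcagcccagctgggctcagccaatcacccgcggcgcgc
Slc27a2: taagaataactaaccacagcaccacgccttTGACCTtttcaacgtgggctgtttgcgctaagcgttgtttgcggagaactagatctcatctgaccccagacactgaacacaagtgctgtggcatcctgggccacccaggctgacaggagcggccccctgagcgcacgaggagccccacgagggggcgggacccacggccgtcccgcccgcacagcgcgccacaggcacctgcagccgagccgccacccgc
Hao2: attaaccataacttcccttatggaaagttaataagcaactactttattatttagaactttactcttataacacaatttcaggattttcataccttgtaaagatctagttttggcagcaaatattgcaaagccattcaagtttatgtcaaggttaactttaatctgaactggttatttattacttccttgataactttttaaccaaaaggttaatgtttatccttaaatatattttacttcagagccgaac
Acsm3: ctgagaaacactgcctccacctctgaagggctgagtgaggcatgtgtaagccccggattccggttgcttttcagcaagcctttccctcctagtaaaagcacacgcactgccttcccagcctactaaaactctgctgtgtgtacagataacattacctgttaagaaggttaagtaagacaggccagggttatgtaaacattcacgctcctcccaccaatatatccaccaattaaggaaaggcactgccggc
Hadhb: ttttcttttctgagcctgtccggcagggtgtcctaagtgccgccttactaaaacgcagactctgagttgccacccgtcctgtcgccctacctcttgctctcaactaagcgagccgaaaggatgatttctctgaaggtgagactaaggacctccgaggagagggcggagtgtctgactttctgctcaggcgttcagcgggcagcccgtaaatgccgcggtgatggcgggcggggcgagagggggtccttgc

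These windows lie at chr3:153944644-153944893 (minus strand), chr19:3323051-3323300 (plus strand), chr2:126552774-126553023 (plus strand), chr3:98893231-98893480 (minus strand), chr7:119760673-119760922 (plus strand) and chr5:30155003-30155252 (plus strand), in that order. AGGTCA was searched on both strands. It occurred in the windows of 6 of 34 members (17.6%), namely Acadm, Acadvl, Acot12, Cpt1a, Echs1 and Slc27a2, against 15.8% of 27025 genes and 14.02% of 32851 windows. The match began 249 bases before the start in Acadm, 94 in Cpt1a and 220 in Slc27a2. Neither the paired form AGGTCANAGGTCA, which holds AGGTCA at both ends, nor the extended form TCAAGGTCA, which ends in it, occurred in any of the 34 members; they occurred in 0.0335% and 0.387% of all windows. These letters are a description of the windows and say nothing on binding. Hadha and Hadhb lie head to head on chromosome 5 with starts 273 bases apart.

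The libraries held 55324078 to 70638283 counts. Member genes took 1.78% to 2.00% of all counts in NC, 0.433% to 0.647% in the mcherry group and 0.538% to 0.763% in the FGF23 variant group. Fgf23 had no count in the 8 NC and mcherry libraries and 4.49 to 7.28 CPM (counts relative to a library total adjusted for composition by TMM factors) in the FGF23 variant libraries, and Havcr1, a marker of tubular injury, ranged from 1.84 to 4.76 CPM in NC, from 1891 to 3639 CPM in the mcherry group and from 531 to 1546 CPM in the FGF23 variant group. Summed CPM of 12 proximal tubule markers was 11209 to 15852 in NC, 1162 to 1786 in the mcherry group and 1868 to 3891 in the FGF23 variant group. All 12 were lower than NC in both injured groups, and 7 of 12 were higher in the FGF23 variant than in the mcherry group, with none lower. Lrp2, the endocytic receptor megalin, was at 1783 ± 356 CPM, 183 ± 60.8 CPM and 503 ± 229 CPM in that order of groups. In bulk kidney, fewer proximal tubule cells and less RNA per cell cannot be told apart, and the part of these markers in the results that follow was not tested.

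In the mcherry group all 38 members were lower than in NC, from the regulators through the carnitine shuttle to the peroxisomal enzymes (edgeR's quasi-likelihood test with Benjamini-Hochberg adjustment over all genes tested, threshold 0.05). The median log2 difference over the members was -1.35, against -0.00264 over all genes tested, of which 53.1% were called, 27.2% higher and 26% lower. These background values depend on the TMM factors. With library totals alone the 2 medians were -1.22 and 0.12, and 59.6% of the genes called were higher. Summed over the members, CPM ranged from 20244 to 22176 in NC, from 4231 to 6500 in the mcherry group and from 4795 to 6609 in the FGF23 variant group. The mcherry and NC ranges did not overlap for 37 of the 38 members, against 51.5% of all genes, 25.5% higher and 26% lower. Slc25a20 was the exception.

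Against the mcherry group, the FGF23 variant group had 11 members higher, 8 lower and 19 not called, where 23.1% of all genes were called (11.7% higher and 11.4% lower). The median log2 difference of the members was 0.15, against 0.01 over all genes. The ranges of the 2 groups did not overlap for 19 members, 10 higher and 9 lower, against 28.4% of all genes (14.5% higher and 13.9% lower). Ppara, Hacl1 and Hao2 were higher than in the mcherry group and passed no test against NC. Ppargc1a, Acsl1, Acad11, Hadhb, Echs1, Decr2, Acox3 and Slc27a2 were higher than in the mcherry group and lower than in NC. Cpt2, Slc25a20, Acsm2, Acsm3, Acadl, Acads, Etfb and Acaa1b, already lower in the mcherry group, were lower again. Against NC, the FGF23 variant group had 35 members lower and none higher, with a median of -1.16, where 42.3% of all genes were called (21.7% higher and 20.6% lower). Ranges did not overlap there for 35 members, all lower, against 41.6% of all genes (20.4% higher and 21.1% lower). The 3 comparisons share libraries in pairs, so their values are given side by side.

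The calls between the injured groups depended on single libraries. Members called higher numbered 15 without mcherry replicate 1, 6 without mcherry replicate 2, 5 without mcherry replicate 4, 4 without FGF23 variant replicate 1 and 6 without FGF23 variant replicate 2 or 5. Members called lower numbered 5 without FGF23 variant replicate 1 and 4 without FGF23 variant replicate 2. The number of all genes called also changed, from 4347 with all libraries. It was 4259, 3575 and 3518 without mcherry replicate 1, 2 or 4. Without FGF23 variant replicate 1, 2 or 5 it was 2410, 2853 and 2718. When libraries were scaled by their totals alone, the median of all genes moved to 0.12, 0.21 and 0.34 in the mcherry group against NC, the FGF23 variant against the mcherry group and the FGF23 variant group against NC. The members called in the FGF23 variant against the mcherry group were then 16 higher and 3 lower. Of all genes, 4060 were then called higher and 1035 lower. Thus 79.7% of called genes and 84.2% of called members were higher. Under every setting tried, from other scalings to each library left out, Ppara, Ppargc1a, Hacl1 and Hao2 stayed called higher and Acsm2 and Acsm3 called lower in that comparison. Each of the other 13 members called there lost its call under at least 1 setting. With library totals alone, Cpt2, Slc25a20, Acadl, Acads and Etfb lost theirs. With no filter on low counts, Acsl1, Etfb, Echs1, Decr2 and Slc27a2 lost theirs.

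**Figure D1:**
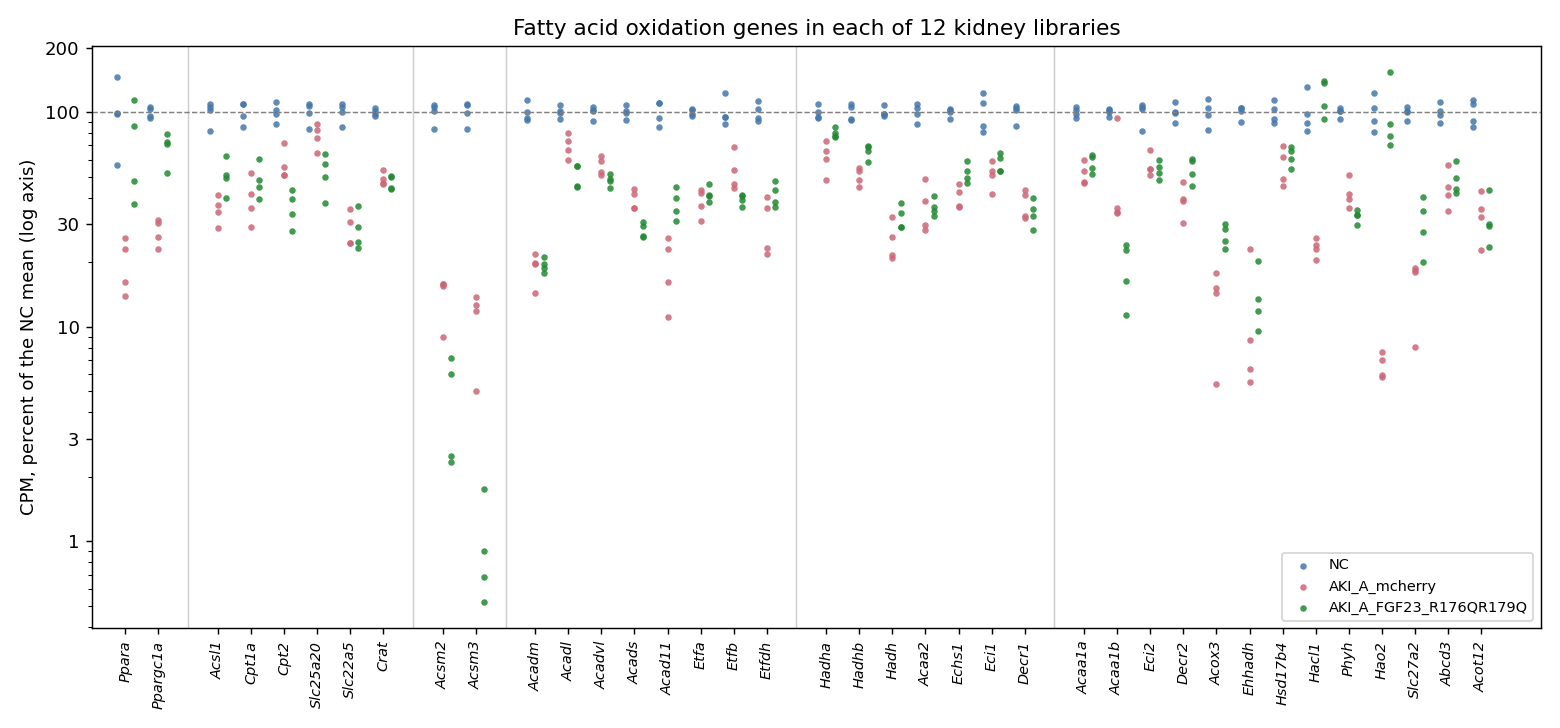
CPM of each of the 38 members in every library, as a percentage of that gene's mean in NC (log axis), with members ordered by role and each point 1 library. All mcherry points lie below the NC points except for Slc25a20, and the FGF23 variant points lie above all mcherry points and overlap the NC points for Ppara, Hacl1 and Hao2 but fall below the mcherry points for Acsm2 and Acsm3.

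Both regulators were low in the mcherry group and higher in the FGF23 variant group. Library values follow the replicate numbers 1 to 4, and 1, 2, 3 and 5 in the FGF23 variant group. Ppara, the fatty acid receptor, was at 13.3, 33.96, 23.2 and 22.8 CPM in NC, 6.03, 3.26, 3.78 and 5.37 CPM in the mcherry group and 26.6, 11.2, 8.67 and 20.1 CPM in the FGF23 variant group. Every mcherry library was below every library of both other groups, which overlapped each other. The log2 difference of Ppara was -2.32 ± 0.29 (SE, adjusted p = 7.44e-05) in the mcherry group against NC, 1.85 ± 0.35 (adjusted p = 0.00608) in the FGF23 variant against the mcherry group and -0.47 ± 0.36 (adjusted p = 0.332) in the FGF23 variant group against NC. Ppargc1a, the coactivator that promotes formation of mitochondria, was at 62.3, 60.7, 68.6 and 66.8 CPM in NC, 19.7, 16.9, 14.8 and 20.3 CPM in the mcherry group and 51.3, 46.7, 33.8 and 45.98 CPM in the FGF23 variant group. The 3 groups did not overlap, with the FGF23 variant group in between. For Ppargc1a the differences were -1.83 ± 0.12 (adjusted p = 7.89e-07), 1.31 ± 0.15 (adjusted p = 0.000643) and -0.52 ± 0.12 (adjusted p = 0.00572) in the same order of comparisons. The last of these was no longer called when libraries were scaled by totals alone or the replicate number was a block. It was also lost when a log2 fold change of at least 1 was required.

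The 6 genes of acyl activation and the carnitine shuttle were all lower in the mcherry group than in NC, by a median log2 of -1.16. In the FGF23 variant against the mcherry group 1 rose, 2 fell further and 3 were not called. Of all genes, 11.7% were called higher and 11.4% lower there. Acsl1, which activates long chains to acyl-CoA, was at 198, 264, 246 and 257 CPM in NC, 99.2, 69.5, 89.1 and 82.5 CPM in the mcherry group and 151, 119, 95.7 and 123 CPM in the FGF23 variant group. The mcherry values were below all NC values, and 1 of the FGF23 variant libraries fell within the mcherry range. Its log2 difference was -1.48 ± 0.13 (adjusted p = 6.51e-06) against NC and 0.52 ± 0.15 (adjusted p = 0.0312) between the injured groups. The call of Acsl1 between the injured groups was lost without mcherry replicate 2, 3 or 4 or FGF23 variant replicate 1, 2 or 5, and its log2 difference ran from 0.41 to 0.72 over all settings. Cpt2, the inner-membrane enzyme that returns the acyl group from carnitine to CoA, was at 196, 205, 225 and 177 CPM in NC, 144, 112, 102 and 103 CPM in the mcherry group and 67.7, 56.2, 78.7 and 87.3 CPM in the FGF23 variant group. The 3 groups were separate and stepped down from NC through the mcherry group to the FGF23 variant group. The 2 steps of Cpt2 were -0.78 ± 0.13 (adjusted p = 0.000572) and -0.67 ± 0.16 (adjusted p = 0.0149). With library totals alone, or without the library highest in fat markers in each group, the second step was no longer called. Requiring a log2 fold change of at least 1 removed the calls of both steps. The second log2 difference ran from -0.82 to -0.46 over all settings.

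Slc25a20, which carries acylcarnitine across the inner membrane, was at 66.6, 60.4, 65.1 and 50.8 CPM in NC, 53.6, 46.3, 50.3 and 39.1 CPM in the mcherry group and 23.02, 30.4, 34.7 and 38.6 CPM in the FGF23 variant group. The mcherry group overlapped NC, and all FGF23 variant libraries were below all mcherry libraries. Its difference from NC in the mcherry group was the smallest among the members, -0.34 ± 0.12 (adjusted p = 0.0387), while the further fall was -0.58 ± 0.16 (adjusted p = 0.0287). The call of Slc25a20 against NC in the mcherry group was lost without mcherry replicate 2, 3 or 4 or NC replicate 1, 2 or 3, and its log2 difference ran from -0.42 to -0.22 over all settings. Between the injured groups, Slc25a20 lost its call without mcherry replicate 1, 2 or 3 or FGF23 variant replicate 1 or 2. Library totals alone, or leaving out the library highest in fat markers in each group, also removed that call. The log2 difference there ran from -0.78 to -0.37 over all settings. Slc22a5, the plasma-membrane carnitine transporter that recovers carnitine from the urine, was at 226, 266, 291 and 282 CPM in NC, 94.4, 65.7, 65.4 and 81.7 CPM in the mcherry group and 77.6, 62.04, 66.4 and 97.1 CPM in the FGF23 variant group. Both injured groups were far below NC and overlapped each other. The difference of Slc22a5 was -1.77 ± 0.14 (adjusted p = 3.3e-06) in the mcherry group against NC and -0.02 ± 0.17 (adjusted p = 0.952) between the injured groups. Cpt1a, the outer-membrane enzyme that commits acyl groups to the mitochondrion, had means of 493 ± 58.1 CPM, 196 ± 47.9 CPM and 238 ± 43.99 CPM (SD, n = 4). Crat, which exchanges acetyl groups with carnitine, had means of 205 ± 8.21 CPM, 100.4 ± 6.98 CPM and 96.9 ± 7.12 CPM. Both were lower than NC in both injured groups, and neither passed the test between the injured groups (adjusted p = 0.289 and 0.731).

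The medium-chain acyl-CoA synthetases Acsm2 and Acsm3, which act in the mitochondrial matrix, had the largest falls in the FGF23 variant group, both against NC and against the mcherry group. Acsm2 was at 3709, 4692, 4814 and 4512 CPM in NC, 705, 698, 398 and 685 CPM in the mcherry group and 317, 111, 104 and 266 CPM in the FGF23 variant group. The groups were separate, and mcherry replicate 3 stood below the other 3 libraries of its group. Its log2 difference was -2.81 ± 0.20 (adjusted p = 1.59e-06) in the mcherry group against NC and -1.64 ± 0.37 (adjusted p = 0.0119) in the FGF23 variant against the mcherry group. Acsm3 was at 1638, 1477, 1619 and 1253 CPM in NC, 205, 189, 75.2 and 177 CPM in the mcherry group and 13.6, 7.85, 10.3 and 26.4 CPM in the FGF23 variant group. Its highest FGF23 variant library was below its lowest mcherry library. The differences of Acsm3 were -3.19 ± 0.29 (adjusted p = 7.16e-06) and -3.47 ± 0.42 (adjusted p = 0.000859), which left the FGF23 variant group at 0.971% of the NC mean. Of their relatives on chromosome 7, Acsm5 rose between the injured groups by 1.08 ± 0.34 (adjusted p = 0.0438) and Acsm1 was at -0.37 ± 0.25 (adjusted p = 0.319). RefSeq on GRCm38.p6 lists these genes in the order Acsm5, Acsm2, Acsm1, Acsm4, Thumpd1, Ppp1ccb and Acsm3. The GENCODE transcripts compared for Acsm2 and Acsm3 were 71.7% identical over 1465 aligned bases.

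**Figure D2:**
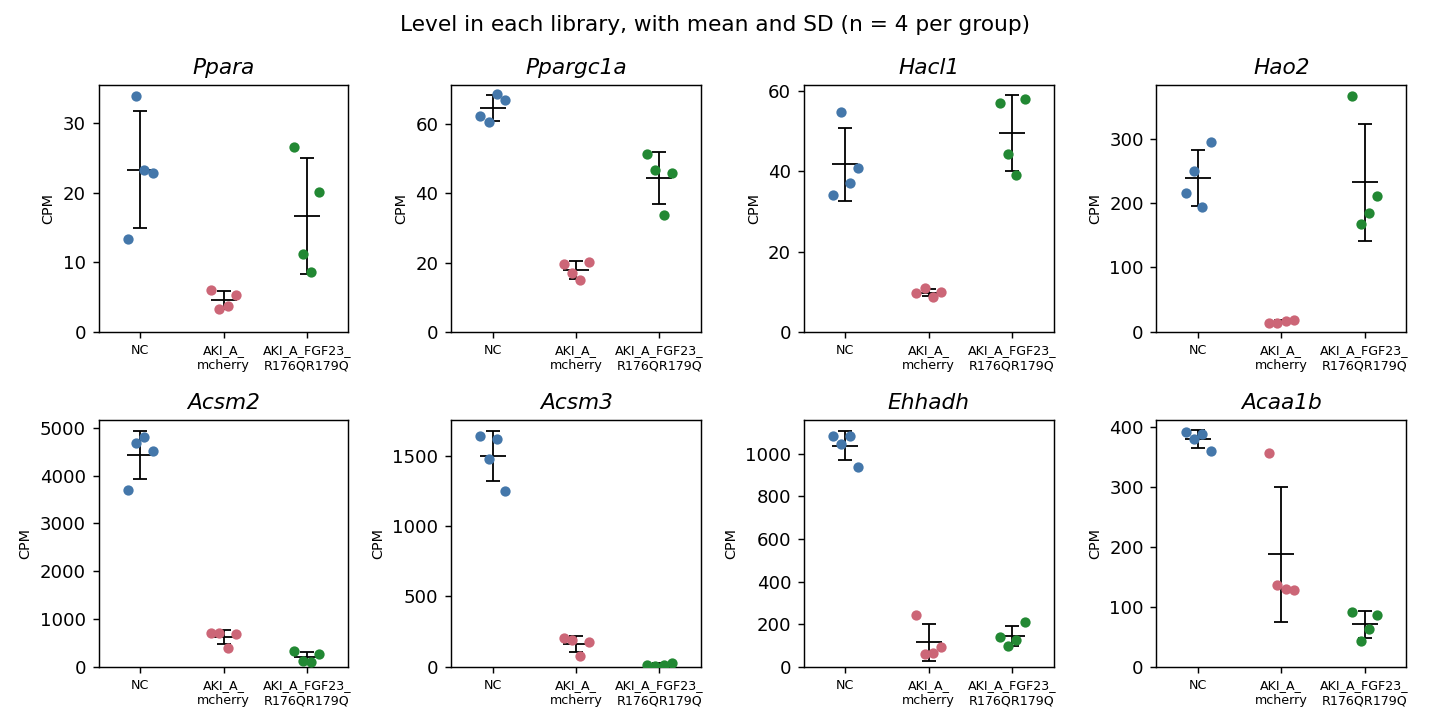
CPM of 8 members in each library (points), with the group mean and SD (bars, n = 4 per group). Hao2 lies at 13.99 to 18.2 CPM in the mcherry group and at 167 to 366 CPM in the FGF23 variant group, while Acsm3 falls from 75.2 to 205 CPM to 7.85 to 26.4 CPM.

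The 8 acyl-CoA dehydrogenases and electron transfer proteins, which carry out the first step of each cycle and pass its electrons to the respiratory chain, were all lower in the mcherry group than in NC, by a median log2 of -1.34. In the FGF23 variant against the mcherry group Acad11 rose, Acadl, Acads and Etfb fell, and 4 were not called. Of all genes, 11.7% were called higher and 11.4% lower there. Acadm, the medium-chain dehydrogenase, was at 1422, 1156, 1175 and 1249 CPM in NC, 273, 245, 179.9 and 248 CPM in the mcherry group and 264, 224, 234 and 245 CPM in the FGF23 variant group. The injured groups overlapped each other and lay far below NC. Its log2 difference was -2.38 ± 0.15 (adjusted p = 5.57e-07) in the mcherry group against NC and 0.04 ± 0.13 (adjusted p = 0.865) between the injured groups. Acads, the short-chain dehydrogenase, was at 316, 296, 291 and 271 CPM in NC, 129, 123, 106 and 105 CPM in the mcherry group and 90.3, 77.6, 77.2 and 86.2 CPM in the FGF23 variant group. Its groups were separate, with the FGF23 variant group lowest. The 2 differences of Acads were -1.32 ± 0.10 (adjusted p = 2.93e-06) and -0.48 ± 0.10 (adjusted p = 0.00932). With library totals alone, or with a log2 fold change of at least 1 required, the second was no longer called. It ran from -0.56 to -0.27 over all settings. Acad11, a dehydrogenase of the same family that also acts on hydroxylated chains, was at 229.8, 299, 253 and 300.3 CPM in NC, 70.6, 29.97, 43.8 and 62.6 CPM in the mcherry group and 122, 93.8, 83.9 and 107 CPM in the FGF23 variant group. Every FGF23 variant library lay between the mcherry and NC ranges. The differences of Acad11 were -2.37 ± 0.24 (adjusted p = 1.64e-05) and 0.98 ± 0.24 (adjusted p = 0.0172). The call of Acad11 between the injured groups was lost without FGF23 variant replicate 1, and its log2 difference ran from 0.79 to 1.17 over all settings.

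Acadl, the long-chain dehydrogenase, stood at 70.05% of the NC mean in the mcherry group and at 50.6% in the FGF23 variant group, and its log2 difference between these was -0.47 ± 0.12 (adjusted p = 0.0234). Between the injured groups, Acadl lost its call without mcherry replicate 1 or 4 or FGF23 variant replicate 1 or 2. Library totals alone, or the replicate number as a block, also removed that call. The log2 difference of Acadl ran from -0.53 to -0.26 over all settings. Etfb, a subunit of the electron transfer flavoprotein, stood at 53.3% and 39.1%, with a difference of -0.44 ± 0.14 (adjusted p = 0.0402). The call of Etfb between the injured groups was lost without mcherry replicate 2 or 3 or FGF23 variant replicate 1, 2, 3 or 5, and its log2 difference ran from -0.52 to -0.23 over all settings. The partner subunit Etfa, at 38.3% and 41.6% of NC, passed no test between the injured groups (adjusted p = 0.486). Etfdh, which hands the electrons to ubiquinone, stood at 30.3% and 41.3% (adjusted p = 0.123). Acadvl, the very-long-chain dehydrogenase, stood at 56.4% and 48.1% (adjusted p = 0.116).

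The 7 mitochondrial genes for hydration, thiolysis and auxiliary steps were lower in the mcherry group than in NC by a median log2 of -1.29. In the FGF23 variant against the mcherry group 2 of them rose, none fell and the median was 0.36, where 11.7% of all genes were called higher and 11.4% lower. With so few genes in a role, such counts are given as a description. Hadhb, the thiolase subunit of the trifunctional protein, was at 234, 241, 204 and 203 CPM in NC, 117, 99.3, 121 and 106 CPM in the mcherry group and 152, 154, 145 and 129 CPM in the FGF23 variant group. The groups were separate, with the FGF23 variant group in between, and the differences were -0.97 ± 0.10 (adjusted p = 2.01e-05) and 0.39 ± 0.10 (adjusted p = 0.0197). The call of Hadhb between the injured groups was lost without mcherry replicate 4 or FGF23 variant replicate 1 or 2, and its log2 difference ran from 0.34 to 0.59 over all settings. The head-to-head neighbour Hadha, the hydratase and dehydrogenase subunit, stood at 62.2% of NC in the mcherry group and 80.01% in the FGF23 variant group. The injured groups did not overlap for Hadha, and its difference was 0.37 ± 0.12 (adjusted p = 0.0581). Echs1, the short-chain enoyl-CoA hydratase, was at 283, 280.2, 254 and 272 CPM in NC, 126, 99.1, 98.1 and 116 CPM in the mcherry group and 161, 145, 134 and 128 CPM in the FGF23 variant group. Its FGF23 variant libraries were all above the mcherry libraries and below NC. The differences of Echs1 were -1.29 ± 0.11 (adjusted p = 3.78e-06) and 0.38 ± 0.11 (adjusted p = 0.0375). The call of Echs1 between the injured groups was lost without mcherry replicate 2, 3 or 4 or FGF23 variant replicate 1, 2, 3 or 5, and its log2 difference ran from 0.26 to 0.58 over all settings.

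Hadh, the hydroxyacyl-CoA dehydrogenase for shorter chains, was at 506, 557, 497 and 508 CPM in NC, 169, 112, 108 and 135 CPM in the mcherry group and 195, 152, 151 and 175 CPM in the FGF23 variant group. Both injured groups lay below NC and overlapped each other. Its log2 difference was -1.96 ± 0.15 (adjusted p = 1.98e-06) against NC and 0.36 ± 0.15 (adjusted p = 0.108) between the injured groups. Acaa2, the mitochondrial thiolase, was at 197, 207, 186 and 166 CPM in NC, 72.7, 56.4, 92.4 and 53.6 CPM in the mcherry group and 77.1, 65.6, 61.8 and 68.5 CPM in the FGF23 variant group. The FGF23 variant values fell within the wider mcherry range. The differences of Acaa2 were -1.44 ± 0.16 (adjusted p = 3.81e-05) and -0.01 ± 0.17 (adjusted p = 0.975). Eci1, an isomerase, and Decr1, a reductase, which prepare unsaturated chains, stood at 51.2% and 37.4% of NC in the mcherry group. In the FGF23 variant group they stood at 58.1% and 34.1%, and neither passed the test between the injured groups (adjusted p = 0.29 and 0.516).

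**Figure D3:**
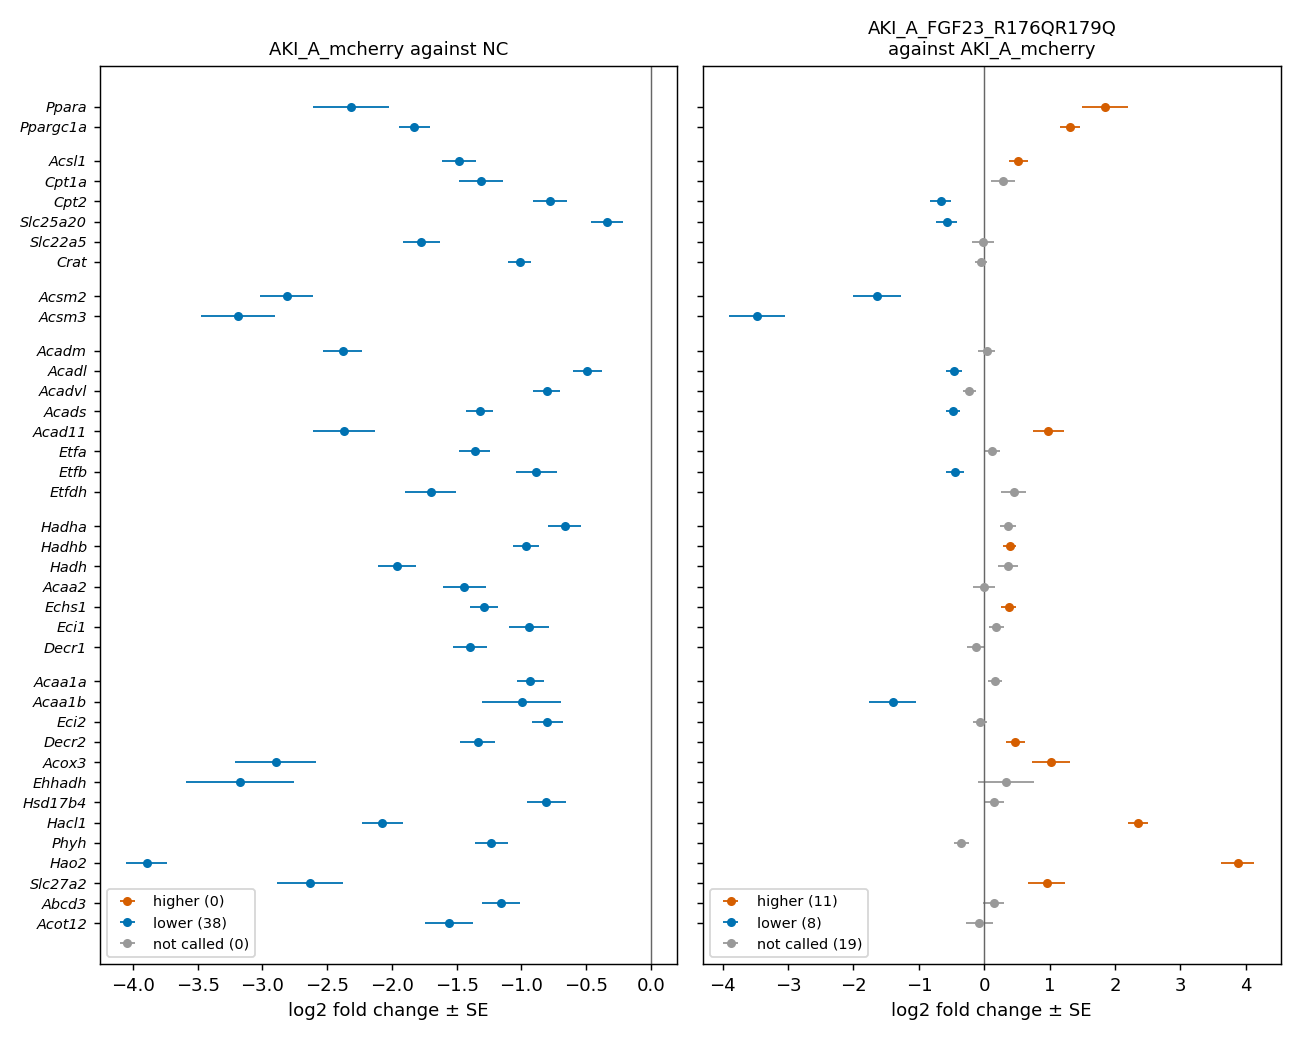
Log2 fold change ± SE of the 38 members, ordered by role, in the mcherry group against NC (left) and in the FGF23 variant against the mcherry group (right), coloured by the call. All 38 are lower on the left, while the right panel has 11 higher, 8 lower and 19 not called, from Acsm3 at -3.47 to Hao2 at 3.88.

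All 13 genes listed under peroxisomal oxidation and import, not all of which need act in the peroxisome, were lower in the mcherry group than in NC. Their median log2 difference was -1.34. In the FGF23 variant against the mcherry group 5 rose (Decr2, Acox3, Hacl1, Hao2 and Slc27a2), Acaa1b fell and 7 were not called. Of all genes, 11.7% were called higher and 11.4% lower there. Hao2, a peroxisomal oxidase of 2-hydroxy acids, moved furthest. It was at 216, 249, 194 and 294 CPM in NC, 13.99, 14.2, 16.8 and 18.2 CPM in the mcherry group and 366, 167, 184 and 210.2 CPM in the FGF23 variant group. Every mcherry library was far below every library of the other 2 groups, which overlapped. The log2 difference of Hao2 was -3.89 ± 0.16 (adjusted p = 5.39e-08) in the mcherry group against NC, 3.88 ± 0.25 (adjusted p = 4.7e-05) between the injured groups and -0.02 ± 0.23 (adjusted p = 0.953) in the FGF23 variant group against NC. Hacl1, the lyase that splits 2-hydroxyacyl-CoA in α-oxidation, was at 34.1, 54.9, 37.1 and 40.9 CPM in NC, 9.61, 10.8, 8.59 and 10.03 CPM in the mcherry group and 56.99, 44.5, 39.01 and 58.1 CPM in the FGF23 variant group. The mcherry libraries were again separate from both other groups. Its 3 differences were -2.07 ± 0.16 (adjusted p = 2.42e-06), 2.35 ± 0.15 (adjusted p = 4.34e-05) and 0.27 ± 0.17 (adjusted p = 0.238). Phyh, which makes the 2-hydroxyacyl-CoA that Hacl1 splits, did not rise with them: it stood at 41.98% of NC in the mcherry group and 32.9% in the FGF23 variant group, a difference of -0.35 ± 0.12 (adjusted p = 0.0564).

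Ehhadh, the bifunctional hydratase and dehydrogenase of peroxisomal β-oxidation, was at 1084, 1049, 1083 and 938 CPM in NC, 241, 57.5, 65.8 and 90.5 CPM in the mcherry group and 139, 99.05, 123 and 211 CPM in the FGF23 variant group. Both injured groups were far below NC, and mcherry replicate 1 was the highest of all 8 injured libraries. The log2 difference of Ehhadh was -3.17 ± 0.42 (adjusted p = 0.000105) in the mcherry group against NC and 0.34 ± 0.43 (adjusted p = 0.599) between the injured groups, where without mcherry replicate 1 it became 1.01 and was called. Acaa1b, a peroxisomal thiolase, was at 392, 379.7, 389 and 359 CPM in NC, 356, 136, 129.7 and 128 CPM in the mcherry group and 91.6, 43.2, 62.2 and 86.6 CPM in the FGF23 variant group. Replicate 1 was again apart in the mcherry group, near NC, and all FGF23 variant libraries were below all mcherry libraries. The differences of Acaa1b were -0.999 ± 0.31 (adjusted p = 0.0181) and -1.40 ± 0.36 (adjusted p = 0.0216). The call of Acaa1b against NC in the mcherry group was lost without mcherry replicate 2 or 4, and its log2 difference ran from -1.51 to -0.85 over all settings. The call of Acaa1b between the injured groups was lost without FGF23 variant replicate 2, and its log2 difference ran from -1.69 to -0.89 over all settings. The same mcherry library also had the highest mcherry value of Cyp4a10 (145 CPM, others 46.9 to 52.5 CPM) and of Plin2 (1719.5 CPM, others 922 to 1091 CPM). The GENCODE transcripts compared for Acaa1a and Acaa1b were 96.6% identical over 1428 aligned bases, so reads may have been divided wrongly between the pair. Acaa1a stood at 51.7% and 57.8% of NC.

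Slc27a2, an acyl-CoA synthetase for very long chains that also takes up fatty acids, had means of 4579 ± 288 CPM, 725 ± 239 CPM and 1402 ± 402 CPM. The 3 groups were separate, and the difference between the injured groups was 0.95 ± 0.29 (adjusted p = 0.037). Acox3, an oxidase that opens the peroxisomal cycle for branched chains, had means of 347 ± 47.4 CPM, 45.8 ± 18.7 CPM and 92.8 ± 11.3 CPM, with a difference of 1.02 ± 0.29 (adjusted p = 0.0308). Decr2, the peroxisomal dienoyl-CoA reductase, rose from 39.02% to 54.2% of NC, by 0.48 ± 0.14 (adjusted p = 0.0384). The call of Slc27a2 between the injured groups was lost without mcherry replicate 2 or 4 or FGF23 variant replicate 1, 3 or 5, and its log2 difference ran from 0.67 to 1.17 over all settings. The call of Acox3 between the injured groups was lost without mcherry replicate 2 or 4 or FGF23 variant replicate 1, 2 or 5, and its log2 difference ran from 0.70 to 1.23 over all settings. The call of Decr2 between the injured groups was lost without mcherry replicate 2, 3 or 4 or FGF23 variant replicate 1, 2 or 5, and its log2 difference ran from 0.38 to 0.68 over all settings. Eci2 (isomerase), Hsd17b4 (the second bifunctional enzyme), Abcd3 (a transporter of the peroxisomal membrane) and Acot12 (an acetyl-CoA hydrolase) stood at 56.6%, 56.3%, 44.2% and 33.4% of NC in the mcherry group. In the FGF23 variant group they stood at 54.01%, 62.5%, 48.7% and 31.7%, and none passed the test between the injured groups.

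Summed by role, CPM in the mcherry group was 25.7% of the NC mean for the regulators, 42.3% for activation and the carnitine shuttle, 13.2% for medium-chain activation, 36.2% for the dehydrogenases and electron transfer, 39.5% for hydration and thiolysis and 23.1% for the peroxisomal genes. The FGF23 variant group stood at 69.5%, 43.4%, 3.61%, 33.5%, 47.4% and 33.4% in the same order. The gap between the injured groups was widest for the regulators and less than 3 percentage points for the shuttle and the dehydrogenases, and medium-chain activation was the group whose sum was lower by the largest factor. These sums weight each gene by its level, so Acsm2 and Slc27a2 dominate their groups.

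**Figure D4:**
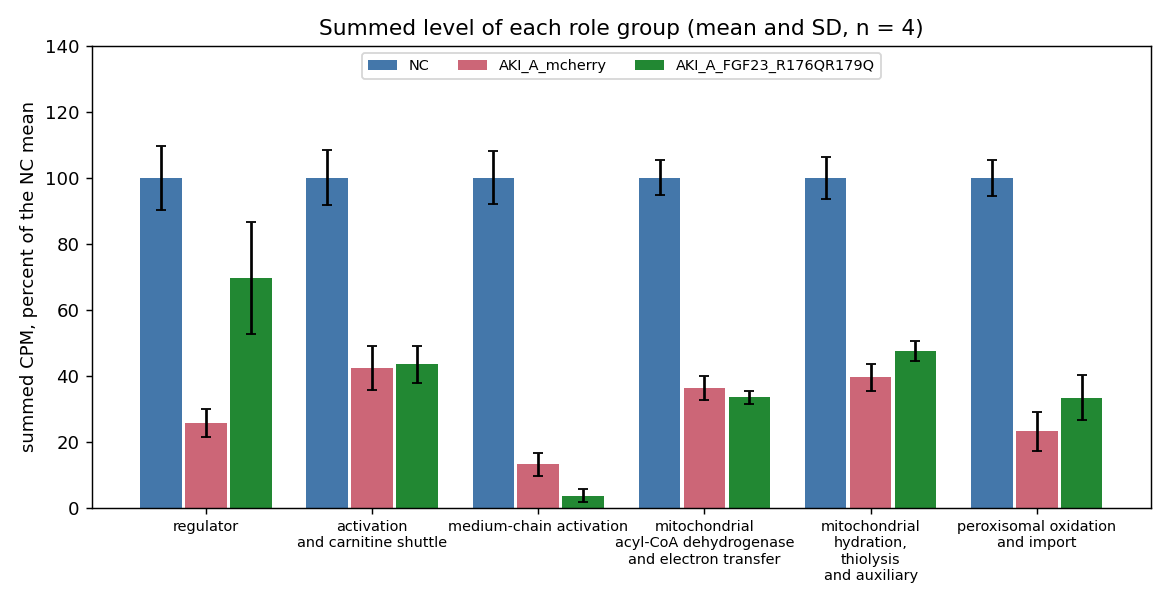
Summed CPM of the members of each role, as a percentage of the NC mean (bars, mean; error bars, SD, n = 4 libraries). Medium-chain activation steps down from 13.2% in the mcherry group to 3.61% in the FGF23 variant group, whereas the regulators stand at 25.7% and 69.5%.

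Levels of different genes were compared per gene length, with the deposited FPKM values. In NC the highest member was Slc27a2 at 1004 ± 78.4 FPKM (SD, n = 4), followed by Acsm2 at 491 ± 60.1 FPKM, Phyh at 292 ± 18.1 FPKM and Ehhadh at 287 ± 22.6 FPKM. The lowest were Hacl1 at 6.95 ± 1.64 FPKM and Ppara at 5.01 ± 1.89 FPKM. Of the 37 pairs of neighbours in this order, 30 had overlapping NC ranges, so most adjacent places are not distinguished. Slc27a2 stayed first in all 3 groups. Acsm3 went from place 6 in NC to 15 in the mcherry group and 38, the last, in the FGF23 variant group, at 3.07 ± 1.78 FPKM. Hao2 went from place 14 to 33 and then to 3, at 118 ± 46.9 FPKM. Ppara held place 38, 38 and 37.

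**Figure D5:**
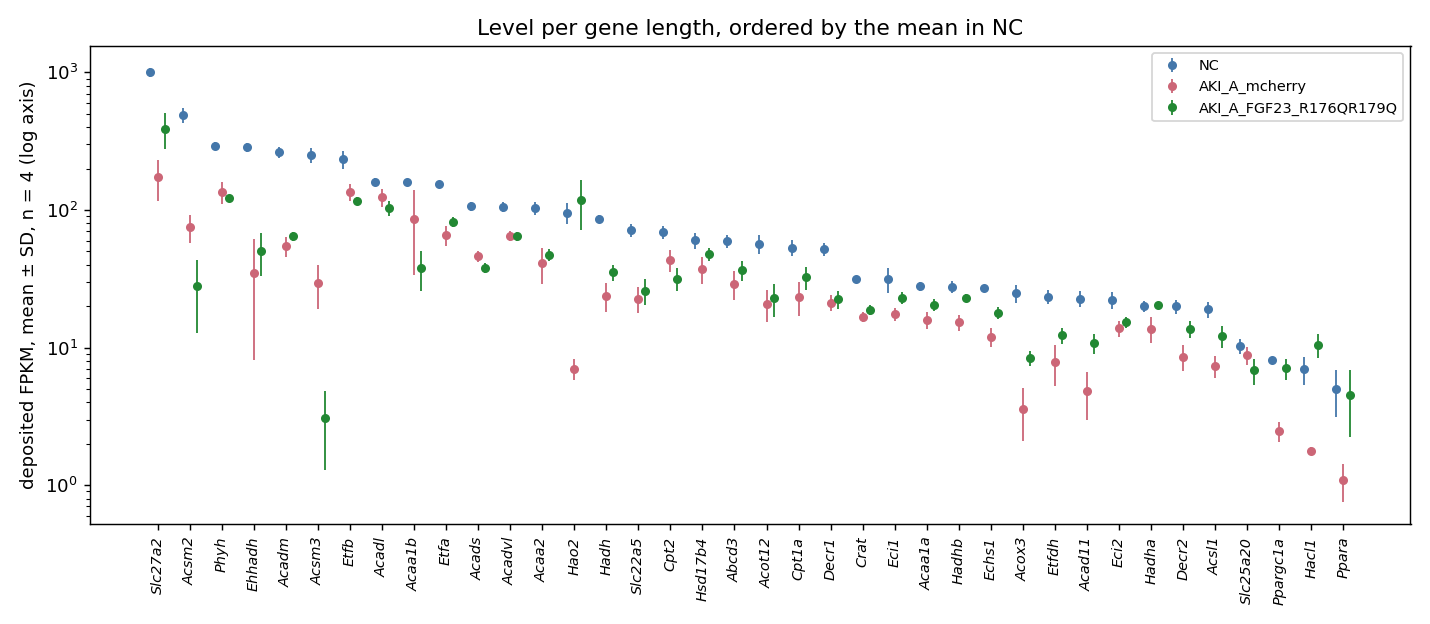
Deposited FPKM of the 38 members (log axis), mean ± SD over 4 libraries per group, ordered from left to right by the mean in NC. Slc27a2 leads in all groups, Acsm3 drops to the last place in the FGF23 variant group, and Hao2 rises to the third.

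Other genes of the pathway were read in the same way, from lists drawn up with earlier results of these data known. Their counts stand beside 27.2% of all genes called higher and 26% lower in the mcherry group against NC, and 11.7% higher and 11.4% lower in the FGF23 variant against the mcherry group. Of 32 further oxidation enzymes and transporters, 25 were lower and 3 higher in the mcherry group than in NC, and 9 were higher and 5 lower in the FGF23 variant than in the mcherry group. Acsl4, a synthetase that prefers arachidonic acid, went against the list: it rose by 2.10 ± 0.11 (adjusted p = 1.86e-07) and fell by 0.45 ± 0.11 on the log2 scale (adjusted p = 0.0166). Acsl5, another long-chain synthetase, also rose against NC, by 1.26 ± 0.10 (adjusted p = 3.25e-06). Pecr, a peroxisomal reductase, differed by -3.74 ± 0.13 (adjusted p = 3.8e-08) from NC. Cpt1b, the muscle form of the outer-membrane enzyme, and Acox2, a peroxisomal oxidase, rose between the injured groups by 1.71 ± 0.21 (adjusted p = 0.000934) and 1.64 ± 0.32 (adjusted p = 0.00665).

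Of 16 other regulators, 10 were lower and 1 higher in the mcherry group than in NC, and 7 were higher and 1 lower in the FGF23 variant than in the mcherry group. Sirt3, a mitochondrial deacetylase, and Lpin1, a coactivator of Ppara, had log2 differences of -2.60 ± 0.11 (adjusted p = 5.39e-08) and -2.67 ± 0.15 (adjusted p = 2.38e-07) against NC. Pprc1, a relative of Ppargc1a, rose by 1.61 ± 0.14 (adjusted p = 4.79e-06). Between the injured groups Lpin1 rose by 1.29 ± 0.21 (adjusted p = 0.00335) and the liver X receptor gene Nr1h3 differed by -0.48 ± 0.11 (adjusted p = 0.0154).

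Among 16 listed targets of Ppara outside the oxidation genes, 15 could be tested in the first 2 comparisons. In the mcherry group 4 were higher and 7 lower than in NC, where 53.1% of all genes were called, and in the FGF23 variant group 1 was higher and 4 lower than in the mcherry group, where 23.1% were called. Plin2, a coat protein of lipid droplets, was at 93.6 ± 12.1 CPM in NC, 1176 ± 369 CPM in the mcherry group and 156 ± 68.7 CPM in the FGF23 variant group. It rose by 3.67 ± 0.22 (adjusted p = 4.01e-07) against NC and differed by -2.91 ± 0.34 (adjusted p = 0.000715) between the injured groups. Cyp4a31, an ω-hydroxylase, differed by -3.13 ± 0.24 (adjusted p = 2.16e-06) from NC. The gene called higher in the FGF23 variant group was Fabp1, which had at most 0.418 CPM in any library.

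Of 12 fatty acid synthesis genes, 7 were lower and 1 higher in the mcherry group than in NC, and 6 were higher and none lower in the FGF23 variant than in the mcherry group. Scd1, a desaturase, differed by -1.82 ± 0.37 (adjusted p = 0.00179) from NC and rose by 1.93 ± 0.39 (adjusted p = 0.00794) between the injured groups. Acacb, which makes the malonyl-CoA that inhibits Cpt1, rose there by 1.15 ± 0.23 (adjusted p = 0.00751). Of 16 peroxisome biogenesis genes, 12 were lower and none higher in the mcherry group than in NC, and 4 were higher and 1 lower in the FGF23 variant than in the mcherry group, where 23.1% of all genes were called. Pex3, which takes part in forming the peroxisomal membrane, had a difference of -0.99 ± 0.10 (adjusted p = 2.16e-05) from NC and rose between the injured groups by 0.52 ± 0.09 (adjusted p = 0.00402).

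Several marker genes moved beside these results. In the mcherry group against NC 27.2% of all genes were called higher and 26% lower. In the FGF23 variant against the mcherry group these shares were 11.7% and 11.4%. Summed CPM of 5 thick ascending limb markers was 5808 to 8640 in NC, 3087 to 3514 in the mcherry group and 4968 to 7449 in the FGF23 variant group. Of these markers 4 were called lower in the mcherry group than in NC, and 4 were called higher in the FGF23 variant than in the mcherry group. Summed CPM of 4 distal convoluted tubule markers was 891 to 1658, 409 to 782 and 1067 to 1269 in the same order of groups, with 3 markers lower and then 3 higher. Of 5 endothelial markers, 1 was lower in the mcherry group than in NC and 3 were higher in the FGF23 variant than in the mcherry group. Other lists moved otherwise in these 2 comparisons. Of 5 collecting duct markers, 3 were lower and 1 higher, and then 2 were higher. Of 5 fibroblast markers, 2 were higher and 1 lower, and then 1 was higher. None of 4 podocyte markers was called in either. These segments and cells lie outside the proximal tubule, and their part in the results of the members was not tested. Of 7 genes known to differ between male and female mouse kidney, 2 were lower and 2 higher in the FGF23 variant than in the mcherry group. All 7 were lower in the mcherry group than in NC. In the FGF23 variant group against NC 5 were lower and 2 higher. There 20.6% of all genes were called lower and 21.7% higher. Kap was at 19086 to 23725 CPM in NC, 5525 to 15786 CPM in the mcherry group and 1028 to 2259 CPM in the FGF23 variant group, and Slco1a1 at 236 to 511 CPM, 12.4 to 58.1 CPM and 0.0422 to 0.884 CPM. Slc7a12 was at 1.72 to 3.65 CPM, 0.000 to 0.178 CPM and 21.3 to 54.2 CPM, and Prlr at 4.38 to 15.8 CPM, 1.40 to 3.07 CPM and 39.6 to 75.98 CPM. Acsm3 and Hao2 moved in the same libraries, and the part of this in their results was not tested. The Y-linked gene Ddx3y was at 30.6 to 53.2 CPM and Xist at 0.0595 to 0.6003 CPM over all 12 libraries.

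Summed CPM of 6 fat markers varied between libraries of 1 group, from 24.4 to 159 in NC, 17.8 to 192 in the mcherry group and 32.9 to 76.5 in the FGF23 variant group. Without the library highest in these markers in each group, a setting chosen after the levels were seen, 5 members were higher and 5 lower in the FGF23 variant than in the mcherry group. The part of fat tissue was not tested. Summed CPM of 5 liver-type markers was 158 to 236, 46.0 to 62.7 and 199 to 287 in NC, the mcherry group and the FGF23 variant group, carried by Ttr and Serpina1a, while Alb was at 1.94 to 19.5 CPM and Cps1 at 0.000 to 0.197 CPM. Skeletal muscle markers summed to at most 1.35 CPM, and the adrenal enzymes Cyp11b1 and Cyp11a1 were at 0.000 to 0.127 CPM and 0.000 to 0.147 CPM. Transcripts of the mitochondrial genome took 15.3% to 16.9% of counts in NC, 13.8% to 17.1% in the mcherry group and 10.9% to 13.1% in the FGF23 variant group, which did not overlap the others. Leukocyte markers summed to 16.2 to 20.1, 32.4 to 71.2 and 19.9 to 32.8 CPM, but did not move together. Of 7 such markers, 3 were higher and 3 lower in the mcherry group than in NC, where 53.1% of all genes were called. Their log2 differences there ran from -3.38 to 5.31. Between the injured groups 1 of the 5 tested was called, lower, where 23.1% of all genes were called.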

How the data were processed

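Poly(A) RNA of mouse kidney was sequenced in 12 libraries; the sample titles give 3 groups of 4. The authors deposited, per the file headers, read counts per gene for each library and the matching FPKM, in which fragments are divided by gene length and by the library total. Per the submitters' processing notes, the build was GRCm39 and the tools included edgeR, fastp and StringTie; for the aligner, the annotation and all versions, the entry is "not given in the sources used here". Among the deposited counts, 4 occurred 11995 times against 5847 for 3 and 3638 for 5. The cause of this excess was not tested, and counts may not be independent molecules.

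Gene identifiers were paired with symbols for 31942 of 32047 genes. In R 4.3.3, edgeR 4.0.16 was run on the 8 libraries of each pair of groups (TMM factors, filterByExpr, quasi-likelihood F test), with Benjamini-Hochberg adjustment over all genes tested and a threshold of 0.05. CPM values use TMM factors computed over all 12 libraries. Depth was 55324078 to 70638283 counts, and every member had at least 163 counts in every library. Levels between genes use the deposited FPKM values. Genes and lists were chosen with earlier results of these data known. Library values are printed for the regulators, for the 2 members of each role with the largest called change in the mcherry group against NC and in the FGF23 variant against the mcherry group, and for members called against most of their role. From the other lists, up to 2 called genes per direction with a mean of at least 5 CPM are named, by size of change. Fabp1 and genes given as checks were named outside this rule, after their values were seen. Some genes that the rule names are not reported here.

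The alternatives were DESeq2 1.42.0, limma-voom with quality weights (limma 3.58.1), RLE or upper quartile factors, no scaling beyond library totals, a floor of 5 CPM or no floor, 1 fit over all 12 libraries, a replicate block, a log2 fold change of at least 1 as a further condition, each library left out, ratios of the deposited FPKM and, chosen after seeing the data, leaving out the library highest in fat markers in each group. On simulated data with 1.5-fold, 2-fold and 4-fold changes, the edgeR step was tested for recovery. For the FGF23 variant against the mcherry group, 76, 60 and 64 of 18824 genes were changed, and 13.2%, 51.7% and 73.4% of these were recovered (6 false calls). For the mcherry group against NC, 67, 60 and 73 of 18724 genes were changed, and 7.46%, 46.7% and 72.6% were recovered (3 false calls). In the data, 23.1% and 53.1% of genes were called in these comparisons, so the adjusted threshold was stricter in the simulation. The recovered shares are therefore not those of the test on the data.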

Additional observations from a re-analysis of the deposited data

Results flagged for a closer look

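In 4 of the 114 sets of 4 libraries examined (38 members in 3 groups), 1 library stood apart from the other 3 of its group by Dixon's ratio; chance alone flags about 1 in 20 such sets. Acsm2 was at 398 CPM in mcherry replicate 3, against 685 to 705 CPM in the others. Slc27a2 was at 367 CPM in the same library, against 827 to 860 CPM. That library had the highest fat marker sum of all 12 (192 CPM), and the part of this in the 2 values was not tested. Acaa1b was at 356 CPM in mcherry replicate 1, against 128 to 136 CPM. Eci2, a peroxisomal isomerase, was at 122 CPM in NC replicate 4, against 156 to 162 CPM.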

How the results depend on the processing

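Lower calls in the mcherry group against NC numbered 36 to 38 members with each library left out, and none was higher. Over 19 settings and 38 members, 697 of 722 values kept their direction and their side of the threshold there, 592 of 722 between the injured groups and 698 of 722 in the FGF23 variant group against NC. These settings leave out the ratios of deposited FPKM means, which have no test. By that ratio, 37, 34 and 10 of 38 members stayed within the spread between replicates in the same order of comparisons, 1, 4 and 27 moved by more, and 1 called member (Hadha) changed sign in the last. Requiring a log2 fold change of at least 1 left 5053 of 9947 genes and 26 of 38 members in the mcherry group against NC, 2882 of 8035 genes and 23 of 35 members in the FGF23 variant group against NC, and 1430 of 4347 genes with 5 members higher and 3 lower between the injured groups. Between the injured groups, members higher numbered 7 instead of 11 without the filter on low counts, members lower numbered 3 instead of 8 with library totals alone, and leaving out each library in turn gave 4 to 15 higher, 4 to 7 lower and 2410 to 4259 genes. Genes called there numbered 3412 without that filter and 5095 with library totals alone. Without the library highest in fat markers in each group, a setting added after seeing the data, there were 5 higher, 5 lower and 2126 genes. With library totals alone, 1 member (Hacl1) was called higher in the FGF23 variant group against NC. Of all genes, 7829 were called higher there and 2096 lower. The cause of these changes was not tested.

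Same-numbered libraries correlated at -0.15 to 0.03 in their deviations from group means in the mcherry group against NC. In the FGF23 variant group against NC they correlated at -0.13 to -0.06, and between the injured groups at 0.07 to 0.11. In that order, 0 of 8, 0 of 6 and 5 of 6 libraries correlated best with their own number. A pairing of the injured groups by replicate number can therefore not be set aside. With the replicate number as a block, 5 members were higher, 6 were lower and 1787 genes were called between the injured groups. There Acsl1, Acadl, Etfb, Hadhb, Echs1, Decr2, Acox3 and Slc27a2 lost their calls. In the FGF23 variant group against NC, 4723 genes were called with the block. The FGF23 variant group shares only 3 numbers with each other group, so the 2 unmatched libraries do not count in that fit.

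Values that changed sign belonged to members not called in that comparison, except Hadha. Between the injured groups with library totals alone, log2 became 0.19 for Slc22a5, 0.16 for Crat, 0.19 for Acaa2, 0.0812 for Decr1, 0.14 for Eci2 and 0.14 for Acot12. With each library left out it ran from -0.16 to 0.10 for Slc22a5, -0.0801 to 0.00064 for Crat, -0.0753 to 0.11 for Acadm, -0.11 to 0.17 for Acaa2, -0.12 to 0.0194 for Eci2 and -0.26 to 0.0738 for Acot12. Under limma-voom it was -0.0128 for Acadm and 0.058 for Acaa2, and with a mean of at least 5 CPM 0.00522 for Acaa2. Without the libraries highest in fat markers it was -0.12 for Acadm, -0.0186 for Etfa and 0.11 for Acaa2. In the FGF23 variant group against NC, Hadha, which was called lower, became 0.0292 with library totals alone and 0.0225 as a ratio of the deposited FPKM means. Hao2 there became 0.31 with library totals alone, 0.0487 with the replicate block and -0.33 to 0.11 with each library left out.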
